A study of Mus musculus with 6 samples.

Results

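The genes described here encode the nuclear subunits of respiratory complexes II, III, IV and V of the mitochondrion, together with cytochrome c. Members were taken by gene symbol alone (Sdha to Sdhd, Uqcr, Cyc1, Cycs, Cox4 to Cox8 and Atp5), and 2 symbols that name pseudogenes were left out. This gave 47 genes of the 22180 on the array that had a feature with exactly 1 gene symbol, with 4 genes in complex II, 8 in complex III, 17 in complex IV, 17 in complex V and 1 for cytochrome c. The subunit genes Uqcr10 and Cox6c shared their features with a second symbol, so they are not among the 47.

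RNA came from hair follicle stem cells of mouse skin at postnatal day 49, sorted on CD34 and alpha-6-integrin and measured on Affymetrix Mouse Gene 2.0 ST arrays. There were 3 wild-type (WT) arrays and 3 arrays of K14-sPLA2-IIA transgenic (TG) mice. The K14 promoter is active in keratinocytes of the basal layer and the outer root sheath as well, so the transgene is not limited to the sorted stem cells. The labels give no strain or sex and do not say whether a sample holds 1 mouse or several. The p-values therefore cover no more than the spread from sample to sample, which may be technical. The transgene was visible in every TG sample, with Pla2g2a at 6.14 ± 0.55 in WT and 12.52 ± 0.12 in TG (log2 scale, SD, n = 3 each). Among hair follicle stem cell markers, Krt14 and Krt15 lay between 13.21 and 14.24 on all 6 arrays. Others varied widely, with Lgr5 from 7.04 to 10.72, Sox9 from 10.65 to 12.16 and Lhx2 from 9.68 to 10.96. Itga6, which encodes alpha-6-integrin, differed by -0.07 between genotypes, and Cd34 ran from 9.65 to 13.07. The arrays numbered 3 of both genotypes stood apart from the others, with the highest Cd34 and the lowest suprabasal markers, and results are given with and without them where they moved. TG array 1 was also high in Cd34, at 11.57. Its mean of stem cell markers was 11.69, against 11.95 on WT array 3 and 11.74 on TG array 3. On WT arrays 1 and 2 and TG array 2 that mean was 10.81, 10.83 and 10.76. Leaving out the arrays numbered 3 therefore does not remove this split.

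Mitochondria make most of a cell's ATP by passing electrons along a chain of protein complexes in the inner membrane. Complex II (succinate dehydrogenase) also belongs to the citric acid cycle, complex III passes electrons from ubiquinol to cytochrome c, and complex IV passes them on to oxygen. Complexes III and IV pump protons, and complex V (ATP synthase) uses the proton gradient to make ATP. All subunits of complex II are encoded in the nucleus, whereas complexes III, IV and V also hold subunits encoded by mitochondrial DNA. Hair follicle stem cells are known for a high rate of glycolysis.

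Most of the 47 genes read somewhat higher in TG than in WT, but none passed the test over all genes. The TG minus WT difference was above 0 for 38 of 47 members (80.9%), against 47.9% of all genes, with a median of 0.19 on the log2 scale against -0.0075 for all genes. In limma, 0 members had an adjusted p under 0.05, and the background was 0.00451% of genes, which is Pla2g2a alone. The adjusted p of every member was 0.99996. At an unadjusted p under 0.05, 7 members (14.9%) were higher in TG, against 1.93% of genes, and 0 were lower, against 0.843% of genes. For Cycs and Atp5h among the 7, the feature used may read a copy at another locus, as described below. The 7 became 5 without both arrays numbered 3, against 3.32% of genes. They became 3 without WT array 2 or WT array 3, against 1.52% and 2.61% of genes, and 1 (Atp5mpl) without TG array 1 or TG array 3, against 0.843% and 1.98%. The 3 TG arrays lay wholly above the 3 WT arrays for 13 members (27.7%), against 3.99% of genes, and wholly below for 0, against 3.21%. In bulk RNA, fewer cells of a type and less RNA per cell cannot be told apart. All 47 members were tested, with no filter on low values.

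Deviations from the genotype mean over all genes correlated at 0.20, 0.67 and 0.74 between WT and TG arrays of the same number, so a fit with arrays paired by number was run too. The number did not single out the first pair, since WT array 1 correlated at 0.50 with TG array 2. Deviations of 3 arrays from their own mean sum to 0, so these correlations depend on each other and are not separate signs of pairing. Paired, 17 members (36.2%) were higher at an unadjusted p under 0.05, against 4.59% of genes, and the lowest adjusted p of a member was 0.531 (limma, Atp5mpl). In all 3 pairs TG lay above WT for 32 of 47 members, against 14.6% of genes. The median difference over members was 0.22 in the pair numbered 1, 0.16 in the pair numbered 2 and 0.20 in the pair numbered 3. The 17 of the paired fit became 4 without both arrays numbered 3, where 4.08% of all genes were called.

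**Figure D1:**
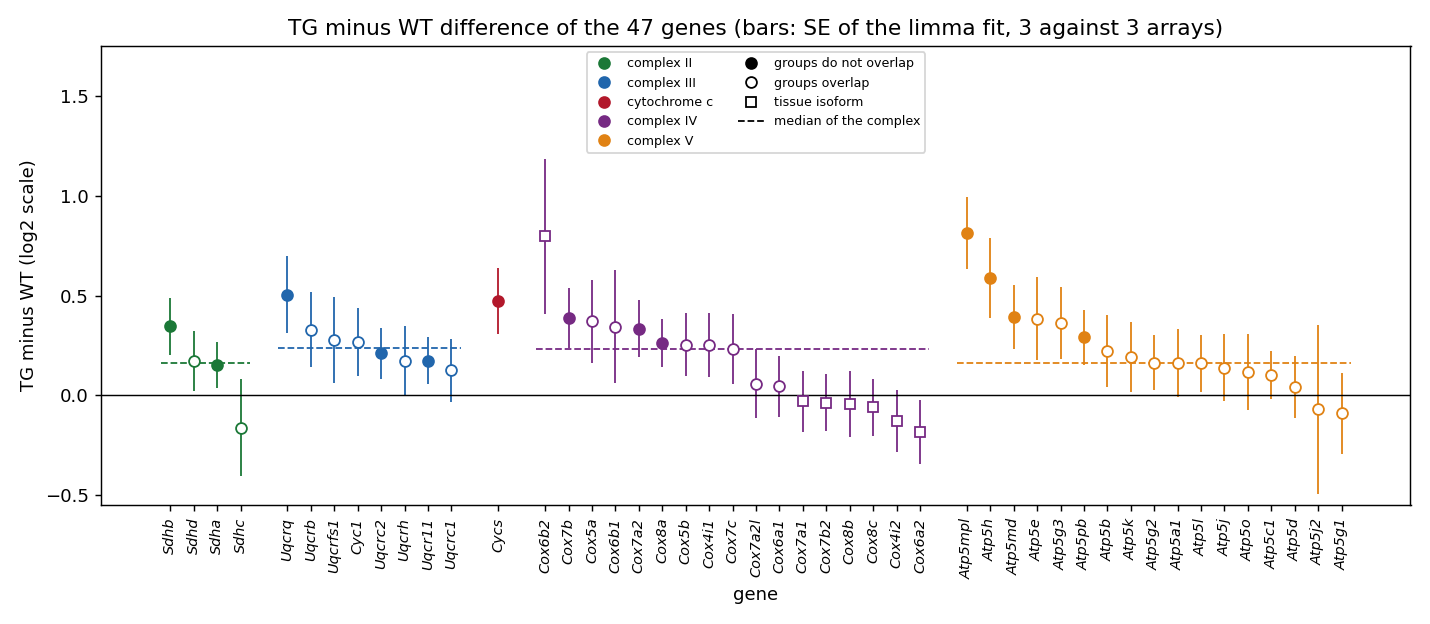
TG minus WT difference of each of the 47 genes on the log2 scale, grouped by complex, with the SE of the limma fit as bars (3 against 3 arrays). Filled points mark genes whose TG arrays all lay above the WT arrays, squares mark complex IV isoforms of other tissues, and dashed lines mark each complex's median, which ran from 0.16 to 0.24 in complexes II to V.

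In complex II 3 of 4 genes had a difference above 0, and both genes of its catalytic part did not overlap between genotypes. Sdhb, which carries the iron-sulfur clusters, gave 9.95, 10.04 and 10.12 in WT, listed as elsewhere in the order of arrays 1 to 3, and 10.59, 10.24 and 10.31 in TG. All TG values lay above all WT values, by 0.35 ± 0.14 (SE, unadjusted p = 0.0485 in limma). Sdha, the flavoprotein that oxidises succinate, also had no overlap, at a smaller difference of 0.15 ± 0.12 (SE). Its 3 WT values lay within 10.22 and 10.25, the narrowest spread of the complex. The membrane anchors Sdhc and Sdhd differed by -0.16 ± 0.24 and 0.17 ± 0.15 (SE). Sdhc read 7.84, 7.75 and 7.66 in WT and 7.95, 7.77 and 7.05 in TG, so the genotypes overlapped and TG array 3 was the low one. Without that array Sdhc differed by 0.11.

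In complex III all 8 measured genes had a difference above 0, from 0.13 to 0.50, and 8 of 8 were above 0 in all 3 pairs. Uqcrq, a small accessory subunit, read 9.53, 9.32 and 8.88 in WT and 9.91, 9.66 and 9.69 in TG. Its lowest TG value was above its highest WT value, and the difference was 0.50 ± 0.19 (SE, unadjusted p = 0.0366 in limma). The low value on WT array 3 weighed on this difference, which was 0.32 without that array. The core subunit gene Uqcrc2 and the small subunit gene Uqcr11 did not overlap between genotypes either, at 0.21 ± 0.13 and 0.17 ± 0.12 (SE). Cyc1 and Uqcrfs1 encode the electron-carrying subunits, cytochrome c1 and the Rieske iron-sulfur protein. They differed by 0.27 ± 0.17 and 0.28 ± 0.21 (SE) with overlapping groups, and had unadjusted p of 0.0469 and 0.0472 in limma when paired. The other core subunit gene, Uqcrc1, had the smallest difference of the complex. It read 12.28, 12.35 and 12.06 in WT and 12.54, 12.39 and 12.14 in TG, which overlapped and differed by 0.13 ± 0.16 (SE).

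Cycs encodes cytochrome c, the soluble carrier between complexes III and IV, which also triggers apoptosis when it leaves the mitochondrion. It read 11.49, 11.46 and 11.05 in WT and 11.88, 11.65 and 11.89 in TG. The groups did not overlap, and the difference was 0.47 ± 0.17 (SE, unadjusted p = 0.026 in limma). The array holds 5 features with the symbol Cycs, and all 5 had a difference above 0, from 0.33 to 0.59. A pair of these gave identical values on all 6 arrays, so they are not separate measurements, and the symbol does not tell the gene from its processed copies in the genome. Feature numbers of most members ran together by chromosome. By number, only the dimmest Cycs feature, with a mean of 8.15, lay between those of chromosomes 5 and 7, as chromosome 6, which holds Cycs, would. It differed by 0.33 ± 0.17 (SE, unadjusted p = 0.0985 in limma over all features). The difference of 0.47 may therefore be that of a copy, and the positions of the probes were not checked.

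The 9 broadly expressed subunits of complex IV all had a difference above 0, with a median of 0.26, and 8 of them were above 0 in all 3 pairs. Cox7b, a small subunit, read 11.60, 11.29 and 11.18 in WT and 11.80, 11.67 and 11.76 in TG. Its groups did not overlap and differed by 0.39 ± 0.15 (SE, unadjusted p = 0.0378 in limma). Cox7a2 and Cox8a, also small subunits, did not overlap at 0.33 ± 0.14 and 0.26 ± 0.12 (SE). Cox5a and Cox6b1 differed by nearly as much, 0.37 ± 0.21 and 0.34 ± 0.28 (SE), but overlapped. For Cox5a WT array 1 lay above TG array 3, and for Cox6b1 TG array 3 lay below WT arrays 1 and 2. Cox4i1, which binds ATP as part of the control of the enzyme, differed by 0.25 ± 0.16 (SE). Cox6a1 was the exception in size, at 0.04 ± 0.16 (SE), with a 95% interval of -0.33 to 0.41. Cox7a2l, which joins complexes III and IV into supercomplexes, differed by 0.06 ± 0.17 (SE).

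Complex IV also has isoforms known from muscle, lung or testis, and 6 of these 7 had a difference below 0, with a median of -0.04. The heart and muscle isoforms Cox6a2, Cox7a1 and Cox8b differed by -0.18 ± 0.16, -0.03 ± 0.15 and -0.04 ± 0.17 (SE), and the lung isoform Cox4i2 by -0.13 ± 0.15. Cox6a2, the lowest of the complex, read 5.90, 5.97 and 6.23 in WT and 5.75, 5.73 and 6.07 in TG, below WT in each pair but with overlap. The testis isoforms Cox7b2 and Cox8c differed by -0.04 ± 0.14 and -0.06 ± 0.14 (SE). All 6 had values below the median level of all genes, and their groups overlapped. The 5 muscle markers measured (Acta1, Ckm, Des, Myh11 and Tnnt3) had a mean of 6.03 to 6.43 in WT and 6.14 to 6.22 in TG, and 4 of 5 were below 0. Summed on the linear scale they ran from 358 to 460 in WT and from 389 to 404 in TG.

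Cox6b2, a testis isoform of the subunit that faces cytochrome c, went the other way. It stood at 6.995, 7.04 and 8.07 in WT and at 8.21, 7.57 and 8.71 in TG. TG was higher in each pair, by 1.21, 0.53 and 0.65, but WT array 3 lay above TG array 2, so the groups overlapped. The difference was 0.80 ± 0.39 (SE, unadjusted p = 0.0806 in limma, and 0.00335 paired). The broadly expressed Cox6b1 read 10.43, 10.42 and 9.67 in WT and 10.78, 10.71 and 10.08 in TG, so within each genotype it was lowest on the array where Cox6b2 was highest. Cd34 read 9.78, 9.89 and 13.07 in WT and 11.57, 9.65 and 12.42 in TG, and its 3 highest arrays (WT array 3, TG array 3 and TG array 1) were also the 3 highest of Cox6b2. Its part in the difference was not tested. Without WT array 3 the difference of Cox6b2 was 1.15, and without TG array 3 it was 0.52.

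**Figure D2:**
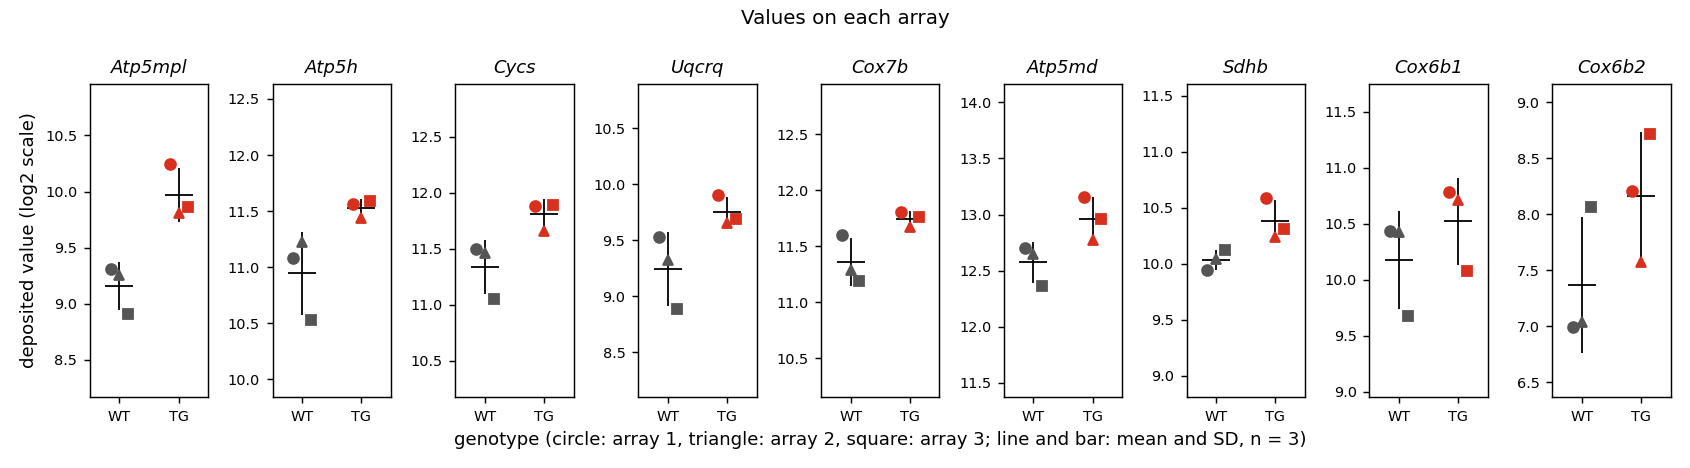
Deposited values (log2 scale) on each array for the 7 genes with an unadjusted p under 0.05 and for the isoform genes Cox6b1 and Cox6b2, with circles, triangles and squares for arrays 1, 2 and 3 and a line with bars for the mean and SD (n = 3). Every panel spans the same range in height, and in the first 7 the lowest TG value is above the highest WT value, while in the last pair the squares of array 3 lie at opposite ends.

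Complex V held the largest difference of all 47 genes and also 2 genes below 0. Atp5mpl, a small membrane subunit of ATP synthase, read 9.31, 9.25 and 8.91 in WT and 10.24, 9.81 and 9.86 in TG. All TG values lay above all WT values, and the difference was 0.81 ± 0.18 (SE), or 1.76-fold, with an unadjusted p of 0.00313 in limma. It was the only member with an unadjusted p under 0.05 in every fit listed under the processing alternatives, where its difference ranged from 0.68 to 0.90. Atp5md, another small membrane subunit, read 12.70, 12.65 and 12.37 in WT and 13.15, 12.77 and 12.96 in TG, a difference of 0.39 ± 0.16 (SE, unadjusted p = 0.0466 in limma) without overlap.

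The peripheral stalk holds the catalytic head of complex V still while the rotor turns. Its subunit d gene, Atp5h, read 11.08, 11.22 and 10.53 in WT and 11.56, 11.44 and 11.59 in TG. The groups did not overlap and differed by 0.59 ± 0.20 (SE, unadjusted p = 0.0232 in limma). A second, dimmer Atp5h feature, with a mean of 5.47 against 11.24, differed by -0.09 ± 0.12 (SE), so the 2 features disagreed in sign. The symbol does not tell which of the 2 features reads the gene at its own locus. By feature number, the dimmer one lay next to those of chromosome 11, where Atp5h is. The feature used lay next to those of chromosome 15. The difference of 0.59 may therefore be that of a copy elsewhere, and the positions of the probes were not checked. The subunit b gene Atp5pb did not overlap either, at 0.29 ± 0.14 (SE), while the stalk genes Atp5j and Atp5o differed by 0.14 ± 0.17 and 0.12 ± 0.19. Of the other membrane subunits, Atp5k and Atp5l differed by 0.19 ± 0.17 and 0.16 ± 0.14 (SE), and Atp5j2 by -0.07 ± 0.42, the widest error of all members.

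By median, the catalytic head (F1) and the rotor ring of complex V stood at 0.16 each, and the stalk and membrane subunits at 0.19. All 5 F1 genes were above 0 and all 5 overlapped. The catalytic subunit genes Atp5a1 and Atp5b differed by 0.16 ± 0.17 and 0.22 ± 0.18 (SE), the central shaft genes Atp5c1, Atp5d and Atp5e by 0.10 ± 0.12, 0.04 ± 0.16 and 0.38 ± 0.21. Atp5e read 11.01 and 10.92 on TG arrays 1 and 3 but 10.29 on TG array 2, within its WT range. The ring subunit c is made from 3 genes that encode the same mature protein. Of these, Atp5g2 and Atp5g3 differed by 0.16 ± 0.14 and 0.36 ± 0.18 (SE), and Atp5g1 by -0.09 ± 0.20. Atp5g1 read 6.51, 6.19 and 6.56 in WT and 6.32, 6.01 and 6.66 in TG, so TG was lower in the pairs numbered 1 and 2 and higher in the pair numbered 3.

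Compared by complex, the median difference was 0.16 in complex II, 0.24 in complex III, 0.23 in complex IV and 0.16 in complex V, with Cycs alone at 0.47. No test of a difference between complexes was made. The order of the medians changed with single arrays. Without WT array 3 complex II had the highest median of complexes II to V (0.20, against 0.14, 0.093 and 0.091 for complexes III, IV and V), and without WT array 1 complex V did (0.28, against 0.18, 0.25 and 0.26 for complexes II, III and IV). All 5 medians stayed above 0 whichever array was left out. The share of members without overlap was 2 of 4 in complex II, 3 of 8 in complex III, 3 of 17 in complex IV and 4 of 17 in complex V. All of these were higher in TG. The share higher in TG without overlap was 3.99% over all genes and 6.24% over genes above the median level.

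**Figure D3:**
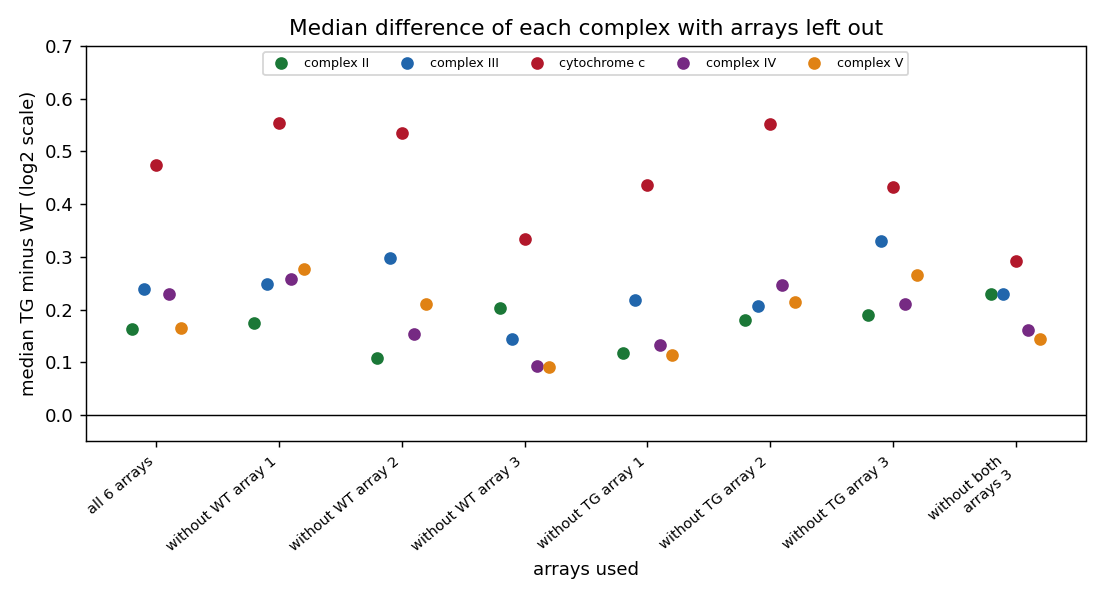
Median TG minus WT difference (log2 scale) of each complex with all 6 arrays, with each array left out and without both arrays numbered 3; cytochrome c is the single gene Cycs. All medians lie above 0, and complexes III, IV and V are lower without WT array 3 than with all 6 arrays (0.14, 0.093 and 0.091).

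Single arrays held most of the members' extreme values. WT array 3 held the lowest value of 29 of the 47 members and TG array 1 the highest value of 29. By complex, WT array 3 was lowest for 6 of 8 genes in complex III, 7 of 17 in complex IV and 15 of 17 in complex V, but for 0 of 4 in complex II. With each gene set to its own mean, the median of complex V was -0.30 on WT array 3, against 0.023 and -0.071 on WT arrays 1 and 2. Complex II stood at -0.039 on WT array 3, slightly above its -0.057 and -0.11 on WT arrays 1 and 2. On TG array 1 the medians were 0.25, 0.26, 0.13 and 0.29 for complexes II, III, IV and V. The median of all genes lay between -0.049 and 0.036 over the 6 arrays. Related gene lists other than the regulators were low on WT array 3 and high on TG array 1 too, so this pattern was not particular to complexes II to V. On these 2 arrays complex I stood at -0.31 and 0.25, genes of mitochondrial content at -0.48 and 0.22, cytosolic ribosomal proteins at -0.19 and 0.18, and assembly factors at -0.19 and 0.15. Regulators of mitochondrial gene expression stood at -0.021 and 0.042.

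**Figure D4:**
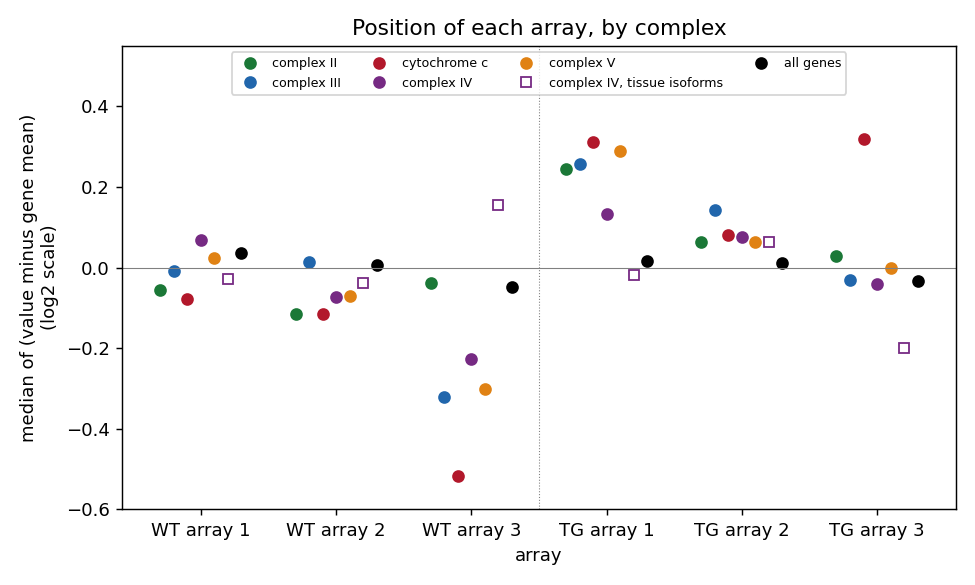
Median over each complex's genes of the value minus that gene's mean over 6 arrays (log2 scale), for each array, with the 7 complex IV isoforms of other tissues and all 22180 genes for comparison. WT array 3 lies at -0.32, -0.23 and -0.30 for complexes III, IV and V but at -0.039 for complex II, while on TG array 1 complexes II to V and cytochrome c lie above 0.

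Markers of other cells and of dividing cells also varied over the arrays. On WT array 3, where most members were lowest, proliferation, melanocyte and muscle markers also had their lowest means (8.36, 7.09 and 6.03). Suprabasal and T cell markers had their lowest mean on TG array 3, and fibroblast and endothelial markers on WT array 2. Suprabasal markers (5 of 5 measured, all 5 below 0) averaged 12.01, 12.04 and 10.21 in WT and 11.17, 12.01 and 9.93 in TG, low on both arrays numbered 3, and their summed linear level ran from 16544 to 40285 in WT and from 13708 to 39378 in TG. Of the proliferation markers (4 of 5 measured, all 4 above 0), 2 (50%) were higher at an unadjusted p under 0.05, against 1.93% of all genes. Groups did not overlap for 2 (50%), against 3.99%. Proliferation markers had a mean of 8.86, 8.45 and 8.36 in WT and 9.38, 8.86 and 9.92 in TG. Their summed linear level ran from 1862 to 2418 in WT and from 2367 to 5054 in TG. T cell and blood markers (6 of 6 measured, all 6 below 0) summed to between 1283 and 4813 in WT and between 1000 and 6050 in TG. Fibroblast markers (5 of 5 measured, all 5 above 0) summed to between 408 and 619 in WT and between 482 and 774 in TG. Endothelial markers (4 of 4 measured, all 4 above 0) summed to between 194 and 344 in WT and between 242 and 397 in TG. The part of these groups in the members' differences was not tested.

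The level of a gene went with the sign of its difference. Of the 38 members above the median level of all genes 37 were above 0, and Sdhc was the exception. Of the 9 members below that level 8 were below 0, and Cox7c (0.23 ± 0.18, SE) was the exception. These 8 were Atp5g1, Atp5j2 and the 6 complex IV isoforms of other tissues that were below 0. Level and isoform class were therefore nearly the same split here. Over all genes the same split was much weaker, with 54.2% above 0 in the upper part and 41.6% in the lower. The brightest 10% of genes held 24 of the members, all 24 above 0, against 56.45% of the 2218 genes there, and 10 of these 24 had no overlap against 7.26%. A mean array value depends on the probes as well as on the transcript, so these ranks are no measure of which subunit is most abundant.

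Promoters are shown for the 5 genes at an unadjusted p under 0.05 that had one at hand (Cycs, Atp5h, Atp5md, Cox7b and Sdhb) and for the isoform pair Cox6b1 and Cox6b2. Each is the 250 bases before the annotated start in RefSeq (build GRCm38.p6). Those on the minus strand are Cycs at chr6:50566570-50566819, Atp5h at chr11:115419920-115420169, Atp5md at chr19:47090648-47090897, Cox6b1 at chr7:30626115-30626364 and Cox6b2 at chr7:4753095-4753344. On the plus strand are Cox7b at chrX:106015450-106015699 and Sdhb at chr4:140961021-140961270. Capitals mark matches to the motifs named after them, and Atp5md and Cox7b held none. The features used for Cycs and Atp5h may read other loci, as given above, so these promoters need not belong to the RNA measured.
Cycs: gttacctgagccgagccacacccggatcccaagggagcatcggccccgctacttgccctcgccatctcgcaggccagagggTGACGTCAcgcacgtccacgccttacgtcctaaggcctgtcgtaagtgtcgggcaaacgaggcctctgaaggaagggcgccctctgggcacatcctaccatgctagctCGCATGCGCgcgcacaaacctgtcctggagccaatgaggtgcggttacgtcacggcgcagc
Atp5h: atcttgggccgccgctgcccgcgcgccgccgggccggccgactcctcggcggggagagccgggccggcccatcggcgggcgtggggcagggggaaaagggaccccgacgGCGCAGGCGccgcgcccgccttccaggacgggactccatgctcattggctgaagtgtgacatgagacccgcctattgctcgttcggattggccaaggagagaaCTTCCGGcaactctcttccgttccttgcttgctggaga
Atp5md: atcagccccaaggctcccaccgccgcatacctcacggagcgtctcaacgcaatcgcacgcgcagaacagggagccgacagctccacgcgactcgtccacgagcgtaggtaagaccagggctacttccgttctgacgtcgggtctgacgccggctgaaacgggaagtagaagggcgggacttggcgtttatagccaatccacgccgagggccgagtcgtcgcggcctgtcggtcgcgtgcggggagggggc
Cox7b: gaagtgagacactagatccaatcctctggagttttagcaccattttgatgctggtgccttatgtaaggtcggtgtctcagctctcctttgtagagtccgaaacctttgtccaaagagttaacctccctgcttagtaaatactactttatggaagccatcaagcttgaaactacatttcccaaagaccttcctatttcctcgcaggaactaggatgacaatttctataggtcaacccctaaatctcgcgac
Sdhb: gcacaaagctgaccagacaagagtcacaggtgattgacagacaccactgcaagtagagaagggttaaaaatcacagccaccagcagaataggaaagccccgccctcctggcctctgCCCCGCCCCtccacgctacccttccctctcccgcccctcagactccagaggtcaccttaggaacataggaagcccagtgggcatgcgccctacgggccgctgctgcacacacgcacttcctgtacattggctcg
Cox6b1: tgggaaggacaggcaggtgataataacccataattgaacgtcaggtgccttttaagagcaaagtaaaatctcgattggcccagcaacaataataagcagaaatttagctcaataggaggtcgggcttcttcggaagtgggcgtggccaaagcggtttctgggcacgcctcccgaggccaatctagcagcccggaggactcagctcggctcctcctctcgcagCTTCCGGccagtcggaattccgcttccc
Cox6b2: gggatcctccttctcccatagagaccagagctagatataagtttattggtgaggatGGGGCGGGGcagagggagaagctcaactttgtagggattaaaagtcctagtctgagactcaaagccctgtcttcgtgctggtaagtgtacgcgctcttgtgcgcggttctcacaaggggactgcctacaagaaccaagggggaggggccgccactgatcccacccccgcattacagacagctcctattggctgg

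In Cycs the capitals are a CRE motif (TGACGTCA) 169 bases and an NRF1 motif (GCGCANGCG) 61 bases before the start. In Atp5h they are an NRF1 motif at 141 bases and an ETS motif (CCGGAAG) at 38, in Cox6b1 an ETS motif at 28, and in Cox6b2 and Sdhb a GC box (GGGGCGGGG) at 194 and 134. Both strands were searched, and matches of different motifs could overlap. NRF1 and the ETS protein GABPA are known activators of respiratory chain genes. Promoters were at hand for 36 of the 47 members. The NRF1 motif stood in 9 of 36 members (25%), against 8.08% of the 16990 tested genes with a promoter and 5.86% of all 27025 genes in the table. The ETS motif also stood in 9 of 36 (25%), against 10.01% and 7.83%. The CRE motif stood in 2 of 36 (5.56%, against 2.30% and 1.77%) and the GC box in 5 of 36 (13.9%, against 15.8% and 11.8%). A YY1 motif (AANATGGC) stood in 1 of 36 (2.78%, against 4.36% and 4.49%). None of the 4 tissue isoforms with a promoter held an NRF1 or ETS match, and Cox6b2 was the isoform with a GC box. Of the 7 members with an unadjusted p under 0.05, 5 had a promoter here, and 2 of these (Cycs and Atp5h) held an NRF1 match.

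Genes around the complexes gave a mixed picture. Complex I subunits, the entry point of electrons from NADH, were above 0 for 30 of 32 genes with a median of 0.27. At an unadjusted p under 0.05, 4 (12.5%) were higher, against 1.93% of all genes, and 0 were lower. These 4 were the accessory subunit genes Ndufb11, Ndufb6, Ndufa1 and Ndufc2, at 0.75 ± 0.22, 0.51 ± 0.16, 0.46 ± 0.17 and 0.41 ± 0.16 (SE). Their list was close to the members in groups without overlap, at 10 of 32 (31.25%) against 27.7% of members and 3.99% of all genes. Assembly factors of complexes II to V, with the ATP synthase inhibitor Atpif1 counted among them, were above 0 for 23 of 33 genes with a median of 0.12. Cox10, an enzyme on the way to the haem of complex IV, was the 1 factor (3.03%) higher at an unadjusted p under 0.05, at 0.35 ± 0.12 (SE), and 0 were lower. Groups did not overlap for 3 of 33 factors (9.09%). Atpif1 itself differed by 0.03 ± 0.26 (SE). Other genes of mitochondrial content were above 0 for 14 of 15 with a median of 0.17, 0 had an unadjusted p under 0.05, and 1 (6.67%) had no overlap. Among them Cs, encoding citrate synthase, differed by 0.08 ± 0.17 (SE).

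Regulators of mitochondrial gene expression were above 0 for 6 of 10 genes with a median of 0.03, close to that of all genes, and 0 had an unadjusted p under 0.05. Tfam, which packages and transcribes mitochondrial DNA, read 6.78, 6.78 and 6.96 in WT and 7.15, 7.08 and 7.86 in TG. Its groups did not overlap and differed by 0.53 ± 0.23 (SE), the largest value of the list. Ppargc1a, a co-activator of mitochondrial biogenesis, differed by -0.50 ± 0.36 (SE), with TG array 3 at 4.99 and the other 5 arrays between 6.09 and 6.64. Nrf1 and Gabpa, whose motifs were searched above, differed by -0.05 ± 0.13 and 0.08 ± 0.15 (SE). Cytosolic ribosomal protein genes, another large group of bright genes, were above 0 for 53 of 63 with a median of 0.11. At an unadjusted p under 0.05, 3 of 63 (4.76%) were higher, against 1.93% of all genes. Of the 63, 9 (14.3%) had no overlap, against 3.99% of all genes. The 6 subunit genes of complexes III, IV and V on the mitochondrial genome were not analysed here.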

How the data were processed

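RNA of sorted hair follicle stem cells was hybridised to 6 arrays, 3 WT and 3 TG, grouped and numbered by their titles. The authors deposited 1 value per feature and array, taken here as log2 from its range of 2.85 to 14.42. The log base, the summarisation and the scaling between arrays: not given in the sources used here. Affymetrix Expression Console 1.4.1 is listed, per the submitters' processing notes. Of 41345 features, 23521 had exactly 1 symbol in the platform annotation, and the brightest per gene by mean of 6 arrays left 22180 genes. Symbols of all 47 members were found in RefSeq.

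TG was compared with WT in limma 3.58.1 (R 4.3.3, group as the only term, two-sided, Benjamini-Hochberg over all genes, threshold 0.05), which was tested on simulated data. Intervals are 95%. With 3 against 3 arrays an exact permutation test cannot go below p = 0.1, so none is given for single genes. The number of arrays limits the precision. Same-numbered arrays were treated as pairs in an alternative, since their deviations from the genotype means correlated at 0.20, 0.67 and 0.74, although WT array 1 correlated more with TG array 2 (0.50). No label gives a common day or litter for these arrays, and the correlations depend on each other. Members, lists, alternatives and the rule for named genes (every member, with array values for those at the extremes of a complex; listed related genes by lowest p and direction) were chosen with earlier results of these data known. The motifs, the split by level and the naming of Cs, Atpif1, Nrf1 and Gabpa were added after the values were seen.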

Additional observations from a re-analysis of the deposited data

How the results depend on the processing

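No member passed the adjusted threshold under any alternative run, and the median difference over all members stayed between 0.13 and 0.26. The number of members higher at an unadjusted p under 0.05, 7 in all, became 17 with a replicate block, 20 with array weights and 4 when genes above the median level alone were tested, while 4.59%, 7.90% and 2.59% of all genes in those fits were called, against 1.93%. It ranged from 1 to 8 with single arrays left out, with 3 without WT array 2 or WT array 3 and 1 (Atp5mpl) without TG array 1 or TG array 3. Without both arrays numbered 3 and with a replicate block, an alternative chosen after seeing the data, it was 4. The single gene past the adjusted threshold, Pla2g2a, was lost (0 genes) with no moderation, without both arrays numbered 3 and without TG array 1, so the count ranged from 0 to 1 over single arrays. The median of complex II was 0.26 with array weights, and that of complex IV ranged from 0.093 (without WT array 3) to 0.26 over single arrays. Among values for single genes under alternatives, 26 changed sign, 682 kept their sign and side of the adjusted threshold, and the other 3 were those of Pla2g2a. With array weights Sdhc was at 0.090, Cox7a1 at 0.069 and Atp5j2 at 0.014. Without both arrays numbered 3, Sdhc was at 0.065, Cox6a1 at -0.029, Cox7a1 at 0.15 and Cox7b2 at 0.018. Over single arrays left out, Sdhc ranged from -0.34 to 0.11, Cox6a1 from -0.068 to 0.17, Cox7a1 from -0.12 to 0.079, Cox7b2 from -0.12 to 0.065, Cox8b from -0.18 to 0.035, Cox8c from -0.14 to 0.025, Cox7a2l from -0.046 to 0.18, Atp5d from -0.072 to 0.13, Atp5g1 from -0.26 to 0.071, Atp5j2 from -0.46 to 0.29 and Atp5o from -0.021 to 0.25. The cause was not tested. The median of all genes was -0.0075 as deposited, 0.0065 after quantile normalization and -0.0082 with arrays centred. No detection value was used, so dim features have no known distance from background.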

Other observations

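Several features of the members' genes were not used above because a brighter feature had the same symbol. In 6 of the 7 genes with several features all features had the same sign, and Atp5h was the exception. The second Cox7b feature, with a mean of 6.28, differed by 0.41 ± 0.22 (SE, unadjusted p = 0.107 in limma over all features). The Cox7b feature used, with a mean of 11.55, differed by 0.39. The second Atp5d feature differed by 0.32 ± 0.30 (SE), against 0.04, and the second Atp5e feature by 0.10 ± 0.14, against 0.38. A further 4 features carried a symbol of complexes III or IV together with that of a second gene, and their differences were all above 0, from 0.04 to 0.50.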
